A study of Mus musculus with 8 samples.

Results

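The cardiac thick-filament genes measured here were those of the myosin heavy chains (Myh6, Myh7 and Myh7b), the myosin light chains (Myl2, Myl3, Myl4 and Myl7), cardiac myosin-binding protein C (Mybpc3) and the M-band proteins myomesin 1 and myomesin 2 (Myom1 and Myom2). They were chosen by name, as 10 of the 50599 records in each library, and all 10 had an adjusted p among the 19959 records that had one. The study sequenced RNA of total hearts, as the labels call them, with nothing said of how the atria were trimmed, from 8 male C57BL/6N mice aged 12 weeks. The 4 mice labelled knockout were Lrpprc loxP/loxP,Cre+ animals, a conditional knockout of heart and skeletal muscle whose Cre driver is not named in the sources used here, and the 4 labelled wildtype were Lrpprc loxP/loxP animals, so both groups carried the loxP alleles and the Cre only the knockout. An effect of the Cre itself therefore cannot be told apart from that of the Lrpprc loss. The comparison asked how these genes differed in hearts whose mitochondria had lost LRPPRC, a mitochondrial RNA-binding protein.

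Myosin is the motor of the thick filament, and each molecule holds a pair of heavy chains, each of which binds an essential and a regulatory light chain. In the adult mouse ventricle the heavy chain is mostly the fast α form from Myh6, whereas the slower β form from Myh7 is made before birth and returns in stressed hearts. Myl2 and Myl3 encode the regulatory and essential light chains of the ventricle, and Myl7 and Myl4 encode their atrial counterparts. Myosin-binding protein C lies along the thick filament and sets how readily heads reach actin, and the myomesins cross-link thick filaments in the M-band.

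The heavy chain genes each carry a microRNA in an intron, and these are shown because their hosts changed in opposite directions. The mature sequences (RefSeq, GRCm38.p6) are written 5′ to 3′ with the seed, bases 2 to 8, in capitals. They lie at chr14:54949072-54949093 and chr14:54975710-54975731 on the minus strand and at chr2:155622893-155622913 on the plus strand, in the order shown.
miR-208a-3p, in Myh6: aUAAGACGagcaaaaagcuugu
miR-208b-3p, in Myh7: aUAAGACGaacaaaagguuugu
miR-499-5p, in Myh7b: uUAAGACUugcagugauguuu
The microRNAs of Myh6 and Myh7 shared their seed and differed at 3 of 22 bases (G10A, A16G and C18U, counted from the 5′ end with the base of miR-208a-3p first). The seed of miR-499-5p differed from that of miR-208a-3p at 1 base (G8U). The records Mir208a, Mir208b and Mir499 had 0 counts in all 8 libraries, which allows up to 3 counts each, so the values below are those of the host mRNAs and say nothing of the mature microRNAs.

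The promoter windows of Myh7 and Myl7, the members with the largest rise and the largest fall, are shown next (RefSeq sequence, GRCm38, minus strand, 250 bases up to the start site). Of 4 motifs searched, capitals mark matches on either strand to 3. The first is CATTCC, the core of the M-CAT element that TEAD factors bind. The next is GATAAG, a site of GATA factors. The last is the CArG box of serum response factor.
Myh7, chr14:54994627-54994876: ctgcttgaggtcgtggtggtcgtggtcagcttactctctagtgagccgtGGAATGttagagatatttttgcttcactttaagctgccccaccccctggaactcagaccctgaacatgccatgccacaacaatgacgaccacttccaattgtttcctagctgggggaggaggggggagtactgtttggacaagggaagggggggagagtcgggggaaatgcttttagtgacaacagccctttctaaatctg
Myl7, chr11:5898783-5899032: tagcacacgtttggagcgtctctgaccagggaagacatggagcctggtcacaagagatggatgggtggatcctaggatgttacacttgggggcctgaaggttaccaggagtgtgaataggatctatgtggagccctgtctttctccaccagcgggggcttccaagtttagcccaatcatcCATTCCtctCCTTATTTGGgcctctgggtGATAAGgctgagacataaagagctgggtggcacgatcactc
The Myh7 window shown held 1 match, to CATTCC, and the Myl7 window held 1 match to each of the 3 motifs. The fourth motif, TATAAA, had 0 matches in either and was held by 12.4% of all windows. RefSeq gives Myh7 another start site, whose window (chr14:54994550-54994799) had 0 matches to any of the 4 and is not shown because 77 of its bases are in exons. Of 32817 promoter windows of the same length, 12.6% held CATTCC, 6.55% the GATA site and 1.47% a CArG box. A match is a description of the letters, and no binding was measured here.

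The libraries held 35218541 to 47743376 expected counts, and Lrpprc itself (chromosome 17 from 84705247 to 84790789) had 3424 to 3946 normalised counts in the wildtype and 504.3 to 605.4 in the knockout. Mitochondrial rRNA took 44.01% to 46.86% of the counts in the wildtype and 65.63% to 67.84% in the knockout, so that TPM, an abundance per length that sums to the same total in every library, was lowered for nuclear genes in the knockout. Normalised counts, which are counts divided by a size factor and corrected for transcript length, were therefore used between groups, and ratios of TPM were used only within a library. Of the counts outside mitochondrial rRNA the 10 members took 4.10% ± 0.24 in wildtype and 4.08% ± 0.22 in knockout libraries (SD, n = 4 each). Those counts still hold the mitochondrial mRNAs. With their total as the scaling, the median log2 fold change of records with at least 10 normalised counts was 0.44. An equal share is therefore not an equal normalised level. Knockout replicate 3 stood apart from the other knockout libraries for several genes below, and values without it are given where they matter.

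Of the 10 members, 8 were called at an adjusted p under 0.05 (DESeq2 Wald test, adjusted over all records), against 33.7% of all records tested. Myh7, Mybpc3 and Myom2 were higher in the knockout, where 18.2% of all records were called higher, and Myh6, Myh7b, Myl2, Myl3 and Myl7 were lower, where 15.5% were called lower. The normalised counts of the groups did not overlap for 9 members, against 33.0% of all records, and Myom1 was the member whose groups overlapped. The median log2 fold change of the 10 members was -0.67, and that of all records tested was 0.01. Without knockout replicate 3 the number called was 9, since Myl4 was added. A heart holds several cell types, and in such RNA fewer cells of a type and less RNA per cell cannot be told apart.

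**Figure D1:**
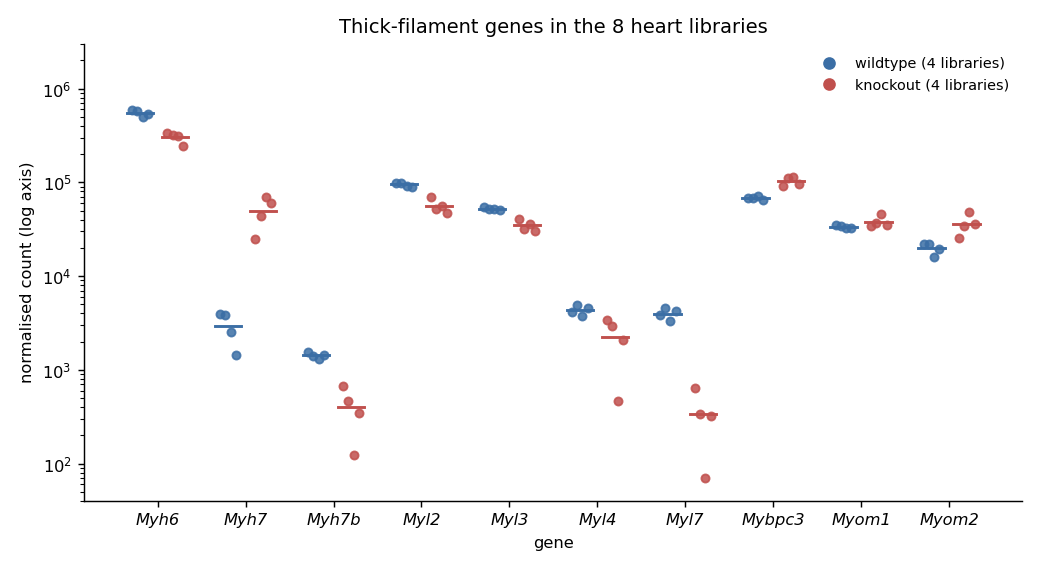
Normalised counts of the 10 thick-filament genes on a log axis, with a point for each library and a line at the mean of each group of 4. Myh7 rises from 1425 to 3923 in the wildtype to 24979 to 70559 in the knockout, while Myl7 falls from 3287 to 4555 to values between 70.13 and 639.1.

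Myh6, the α heavy chain gene (ENSMUSG00000040752.15, chromosome 14 from 54941921 to 54966927 on the minus strand), had 599565, 580815, 498884 and 536534 normalised counts in wildtype replicates 1 to 4. In knockout replicates 1 to 4 it had 335588, 322534, 310245 and 242062. The groups did not overlap, and replicate 4 was the lowest of the knockout. Myh6 thus fell, with a log2 fold change of -0.87 (SE 0.13, DESeq2 adjusted p = 7.12e-11), a level 1.83-fold lower.

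Myh7, the β heavy chain gene (ENSMUSG00000053093.15, chromosome 14 from 54970684 to 54994626 on the minus strand), lies 3756 bases upstream of Myh6 on the same strand. It had 3923, 3805, 2505 and 1425 normalised counts in the wildtype and 24979, 43619, 70559 and 60829 in the knockout. The lowest knockout library was far above the highest wildtype library, and the spread was wide within both groups, with a coefficient of variation of 40.6% in the wildtype and 40.1% in the knockout. Myh7 rose by 4.10 on the log2 scale (SE 0.412, DESeq2 adjusted p = 1.29e-21), a 17.2-fold higher level. The heavy chain mRNAs are alike, and of the 50-base windows of the Myh7 transcripts 22.2% also occur in Myh6, so that part of the reads needed dividing between them. Of the 100-base windows 11.2% are shared.

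The Myh7 to Myh6 ratio of TPM does not depend on the scaling of the libraries, apart from the 1 TPM added in the log2 ratio below. For every 100 Myh6 transcripts by TPM there were 0.602, 0.604, 0.463 and 0.245 Myh7 transcripts in the wildtype. In the knockout there were 6.86, 12.5, 20.95 and 23.1. The log2 ratio, with 1 TPM added to each gene, was -7.68 ± 0.55 in wildtype and -2.80 ± 0.80 in knockout libraries (SD, n = 4 each). The ratios thus differed by 4.87 on the log2 scale, and the exact permutation test over 70 assignments gave its smallest possible p (two-sided p = 0.0286). Myh6 was still the main heavy chain in every knockout library, with 81.05% to 93.31% of the TPM of the 3 heavy chain genes against 99.0% to 99.33% in the wildtype.

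Myh7b encodes a further slow myosin of muscle, and was the lowest member per kilobase in both groups (ENSMUSG00000074652.3, chromosome 2 from 155611212 to 155634307). It did not follow its paralog Myh7. Its normalised counts were 1536, 1419, 1313 and 1434 in the wildtype and 667.6, 465, 123.5 and 349.3 in the knockout, with no overlap and with replicate 3 the lowest. On the log2 scale it changed by -1.83 (SE 0.466, DESeq2 adjusted p = 0.000528), and -1.53 without knockout replicate 3 (DESeq2, adjusted p = 8.65e-16). The annotation gives Myh7b a protein-coding transcript of 6163 bases and short noncoding ones of 667 and 674 bases. From the mean transcript length that RSEM gave each library, the coding transcript made up 50.0% to 57.7% of the Myh7b transcripts in the wildtype and 46.8% to 63.4% in the knockout. The overlap came from knockout replicate 1, and the other 3 knockout libraries lay below the wildtype. Leaving it out moved the difference in mean length from -196.6 to -420.7 bases (exact permutation test, p = 0.0571).

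Mhrt, a noncoding antisense RNA of the heavy chain locus (chromosome 14 from 54968678 to 54974349 on the plus strand), overlaps Myh7 by 3666 bases. It had 957.7, 869.1, 761.8 and 820.3 normalised counts in the wildtype and 312.4, 221.3, 71.84 and 121 in the knockout. Thus the antisense record fell where the sense gene rose, with a log2 fold change of -2.23 (SE 0.339, DESeq2 adjusted p = 8.43e-10). The counting was set to use strand.

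**Figure D2:**
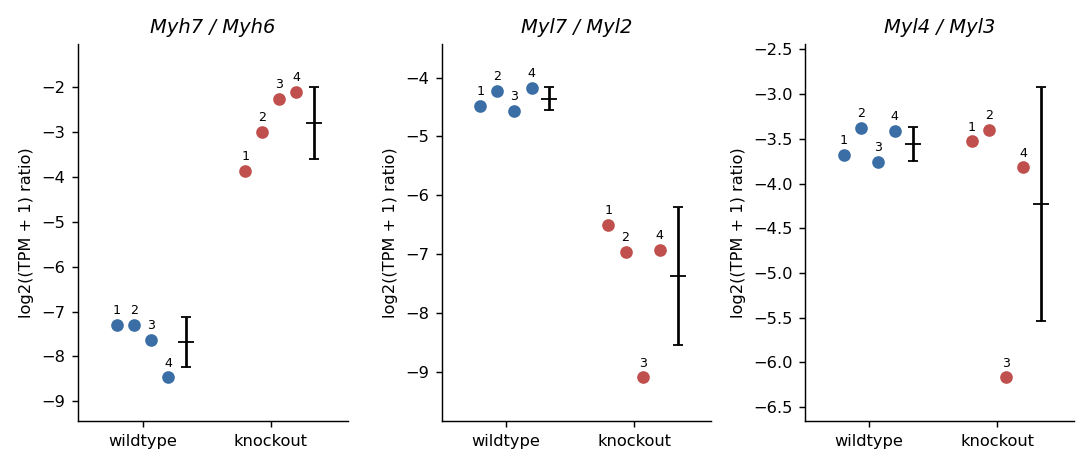
Log2 ratios of TPM within each library, with 1 TPM added to each gene, for Myh7 over Myh6, Myl7 over Myl2 and Myl4 over Myl3. Points are libraries with their replicate number, and the black bars give the mean and SD of each group of 4. The knockout lies above the wildtype for the heavy chains and below it for Myl7 over Myl2, and for Myl4 over Myl3 only knockout replicate 3 lies far from the wildtype.

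Myl2, the ventricular regulatory light chain gene (ENSMUSG00000013936.12, chromosome 5 from 122100951 to 122113472), had 99495, 99533, 91627 and 89884 normalised counts in the wildtype. The knockout had 69410, 51476, 56438 and 47475. The knockout lay wholly below the wildtype, with a log2 fold change of -0.76 (SE 0.13, DESeq2 adjusted p = 6.25e-08).

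Myl3, the ventricular essential light chain gene (ENSMUSG00000059741.13, chromosome 9 from 110741861 to 110769798), had 54123, 52169, 51730 and 50350 normalised counts in the wildtype and 40495, 32059, 36286 and 30340 in the knockout. It was among the steadiest members in the wildtype, with a coefficient of variation of 2.99%. Its log2 fold change was -0.58 (SE 0.109, DESeq2 adjusted p = 1.07e-06). With total counts outside mitochondrial rRNA (rRNA-free total counts) as the scaling the value was -0.16 and the call was lost (DESeq2, adjusted p = 0.178).

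Myl7, the atrial regulatory light chain gene (ENSMUSG00000020469.8, chromosome 11 from 5896637 to 5898782 on the minus strand), had the largest fall of the members. Its normalised counts were 3810, 4555, 3287 and 4244 in the wildtype and 639.1, 337.1, 70.13 and 319.4 in the knockout. The highest knockout library was well below the lowest wildtype library, and replicate 3 was the lowest, on 61 expected counts. Its log2 fold change was -3.54 (SE 0.582, DESeq2 adjusted p = 1.74e-08), an 11.6-fold lower level, and it was -3.20 without knockout replicate 3 (DESeq2, adjusted p = 1.39e-22).

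Myl4, the atrial essential light chain gene (ENSMUSG00000061086.12, chromosome 11 from 104550663 to 104595753), was not called. It had 4116, 4917, 3730 and 4611 normalised counts in the wildtype and 3415, 2948, 463.3 and 2084 in the knockout. The groups did not overlap, but replicate 1 came close to the wildtype while replicate 3 was far below the other knockout libraries. The log2 fold change was -0.96 (SE 0.556, DESeq2 adjusted p = 0.179) with a 95% interval of -2.05 to 0.13. Without knockout replicate 3 it was smaller, -0.63, and was called (DESeq2, adjusted p = 0.000462).

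The atrial to ventricular ratios of the light chains were compared within libraries. For every 100 Myl2 transcripts by TPM there were 4.47, 5.35, 4.19 and 5.52 Myl7 transcripts in the wildtype and 1.08, 0.765, 0.145 and 0.786 in the knockout. All knockout libraries were below the wildtype. The log2 ratio, with 1 TPM added to each gene, differed by -3.01 (exact permutation test, two-sided p = 0.0286), an 8.05-fold lower ratio. Without knockout replicate 3 it differed by -2.43. For every 100 Myl3 transcripts there were 7.75, 9.60, 7.34 and 9.33 Myl4 transcripts in the wildtype and 8.59, 9.37, 1.30 and 7.00 in the knockout. Here knockout replicates 1 and 2 lay inside the wildtype range, replicate 4 just under it and replicate 3 far under it. The log2 ratio of Myl4 to Myl3 was -3.56 ± 0.19 in wildtype and -4.23 ± 1.30 in knockout libraries (SD, n = 4 each). They differed by -0.67 (exact permutation test, two-sided p = 0.429), and by -0.03 without knockout replicate 3 (exact permutation test, two-sided p = 0.886).

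The ratio of the atrial light chain genes to each other, chosen after the values were seen and given without a test, was 1.65, 1.65, 1.57 and 1.64 Myl7 transcripts per Myl4 transcript by TPM in the wildtype. In the knockout it was 0.333, 0.203, 0.269 and 0.273. Knockout replicate 3, the lowest in both genes, had a ratio between those of the other knockout libraries. Of the TPM of the 4 light chain genes, the atrial pair took 4.79% to 6.13% in the wildtype and 0.481% to 3.13% in the knockout. The lowest of these was knockout replicate 3, and the other knockout libraries had 2.53% to 3.13%.

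Of 9 atrial marker genes, 4 were lower, 1 was higher and 4 were not called, with a median log2 fold change of -1.03, and none was at 0. The counts of this paragraph stand beside 33.7% called among all records, 18.2% higher and 15.5% lower. Kcnj3 and Sln, an atrial potassium channel and the calcium pump inhibitor sarcolipin, fell by 2.92 and 2.84 on the log2 scale, and Stard10 fell by 2.57 (DESeq2, adjusted p = 2.55e-48, 1.51e-17 and 6.01e-18). Nppa, the natriuretic peptide of the atria, which stressed ventricles also make, rose by 1.73 (DESeq2, adjusted p = 1.39e-48), and the summed level of the list went from 20718 to 22708 normalised counts in the wildtype to 36672 to 53818 in the knockout. Without Nppa the direction was the opposite, since the other 8 markers summed to 8377 to 10128 in the wildtype and 2337 to 5189 in the knockout. The highest of these knockout sums was that of replicate 2, where Bmp10 had 2545 normalised counts against 545.6 to 688.3 in the other knockout libraries. Knockout replicate 3, the lowest library for Myl7 and Myl4, was also the lowest knockout library for 7 of the 9 markers. Bmp10, Dkk3 and Nr2f2 were not called, nor was Mybphl, the atrial relative of myosin-binding protein C, whose log2 fold change was -1.03 with 74.88 normalised counts in knockout replicate 3 and 327.2 to 498.4 in the others. Of 4 ventricular marker genes, Irx4 and Irx5 were lower, the latter at an adjusted p of 0.047 (DESeq2) that was lost in several alternatives, and the summed level was 799.5 to 1063 in the wildtype and 538.4 to 603.1 in the knockout. With total counts 7 atrial and 4 ventricular markers were lower, and with rRNA-free total counts 4 and 1. Among all records 5912 of 19961 were called lower with total counts and 1111 of 20459 with rRNA-free total counts. The part of atrial tissue in the Myl4 and Myl7 values was not tested.

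**Figure D3:**
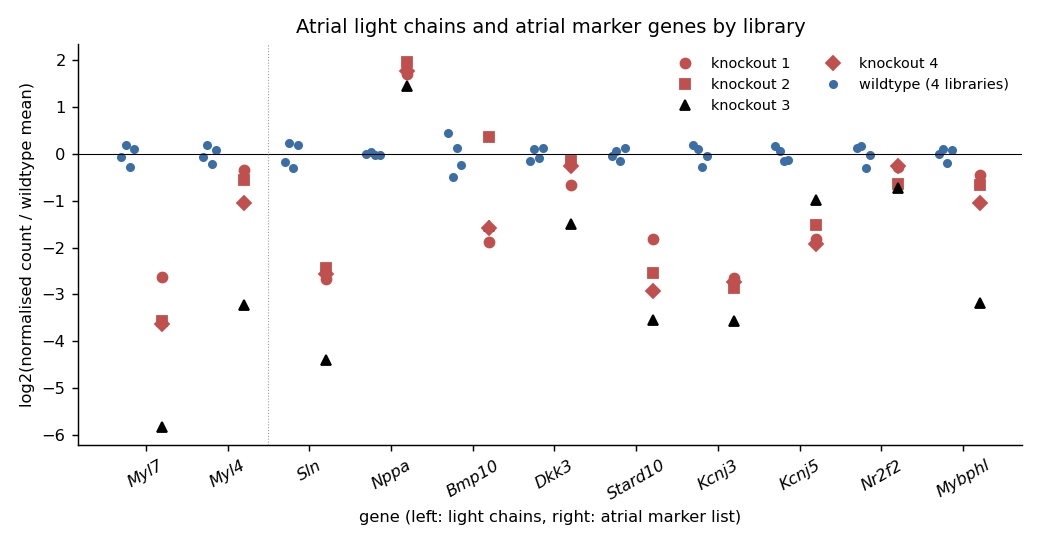
Myl7, Myl4 and 9 atrial marker genes as the log2 of the normalised count over the wildtype mean, with a blue point for each wildtype library and a marker shape for each knockout library. Knockout replicate 3, in black, is the lowest knockout library for Myl7, Myl4 and 7 of the 9 markers and the highest for 1, Kcnj5, and Nppa is above the wildtype in all 4 knockout libraries.

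Mybpc3, the gene of cardiac myosin-binding protein C (ENSMUSG00000002100.15, chromosome 2 from 91118144 to 91136516), rose as Myh7 did, while Myh6 and the ventricular light chain genes fell. It had 67729, 68239, 71069 and 65138 normalised counts in the wildtype and 92052, 111958, 112912 and 95042 in the knockout. The groups did not overlap, and the log2 fold change was 0.60 (SE 0.0988, DESeq2 adjusted p = 2.05e-08), a 1.51-fold higher level.

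Myom2, which encodes the myomesin of fast fibres and adult heart (ENSMUSG00000031461.4, chromosome 8 from 15057653 to 15133541), had 22159, 22249, 15805 and 19413 normalised counts in the wildtype. In the knockout it had 25261, 34034, 48647 and 35838. Every knockout library was above every wildtype library, with replicate 1 close to the wildtype and replicate 3 the highest. Myom2 changed by 0.85 on the log2 scale (SE 0.195, DESeq2 adjusted p = 8.73e-05), and 0.67 without knockout replicate 3 (DESeq2, adjusted p = 3.7e-05). With the replicate number added to the fit the value was 0.82 and the call was lost (DESeq2, adjusted p = 0.0758).

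Myom1, the gene of the general striated muscle myomesin (ENSMUSG00000024049.14, chromosome 17 from 71002633 to 71126856), was not called. Its normalised counts were 34814, 33924, 32687 and 32382 in the wildtype and 34159, 37012, 46522 and 35093 in the knockout, where replicate 1 lay inside the wildtype range. The log2 fold change was 0.19 with a 95% interval of -0.04 to 0.42 (DESeq2, adjusted p = 0.206). Leaving out knockout replicate 3 gave 0.08 (DESeq2, adjusted p = 0.356), and the value turned negative, to -0.11, with total-count scaling. With rRNA-free total counts Myom1 was called higher, at 0.61 (DESeq2, adjusted p = 1.81e-10). Within libraries there were 0.546 to 0.74 Myom2 transcripts per Myom1 transcript by TPM in the wildtype and 0.835 to 1.18 in the knockout, with no overlap.

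Myom1 differed in mean transcript length where its total did not pass the test. The mean transcript length weighted by abundance, as RSEM gave it, was 5338.51 to 5340.53 bases in the wildtype and 5320.32 to 5323.25 bases in the knockout. The groups did not overlap, and the difference was -17.8 bases, at the smallest p of the exact permutation test (0.0286). Among the 9 members with several transcripts, 3 had groups that did not overlap in this length, against 10.0% of 8488 genes with several transcripts and a mean of at least 100 normalised counts. The others were Myl2, longer by 2.63 bases in the knockout, and Mybpc3, with a difference of -0.28 bases. The effective length, which also takes up the fragment sizes of each library, left 1 of these, Myom1. GENCODE M21 holds 3 transcripts of Myom1, of which 1 has an exon of 294 bases (chr17:71082203-71082496, GRCm38), and they differ further in their ends and in the place of an exon of 23 bases. The files used other versions of 2 of these 3, so the lengths alone do not say which transcript changed.

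The summed levels of paired genes were compared per kilobase of effective length. Myh6 and Myh7 together had 110077, 106635, 91465 and 98154 normalised counts per kilobase in the wildtype and 65441, 66192, 68478 and 54399 in the knockout. Every knockout library lay below every wildtype library although Myh7 rose, and the geometric mean fell by 37.5%. The regulatory pair Myl2 and Myl7 fell from 189878 to 209924 to 95795 to 140455 normalised counts per kilobase, and the essential pair Myl3 and Myl4 from 71079 to 75300 to 41918 to 56781, with no overlap in either. The log2 differences were -0.68, -0.83 and -0.62 for the heavy, regulatory and essential chains. All 3 kept their sign with rRNA-free total counts as the scaling, where the essential pair was at -0.19 and its groups overlapped.

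The other members were set against the heavy chains of the same library, whose own sum fell, so that a gene of unchanged normalised level would rise 1.6-fold in this ratio. Per transcript of Myh6 and Myh7 by TPM there were 1.89 to 2.09 transcripts of the regulatory pair in the wildtype and 1.57 to 2.15 in the knockout. The essential pair had 0.684 to 0.784 in the wildtype and 0.684 to 0.868 in the knockout, so that both kinds of light chain overlapped between groups. Mybpc3 had 0.153 to 0.193 in the wildtype and 0.349 to 0.434 in the knockout. The mean ratio rose 2.41-fold for Mybpc3, 2.91-fold for Myom2 and 1.82-fold for Myom1, the last close to the 1.6-fold of no change. Both myomesins were above the wildtype in every knockout library, Myom1 with 0.1004 to 0.1306 against 0.0608 to 0.0687 and Myom2 with 0.0838 to 0.154 against 0.0375 to 0.0453.

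**Figure D4:**
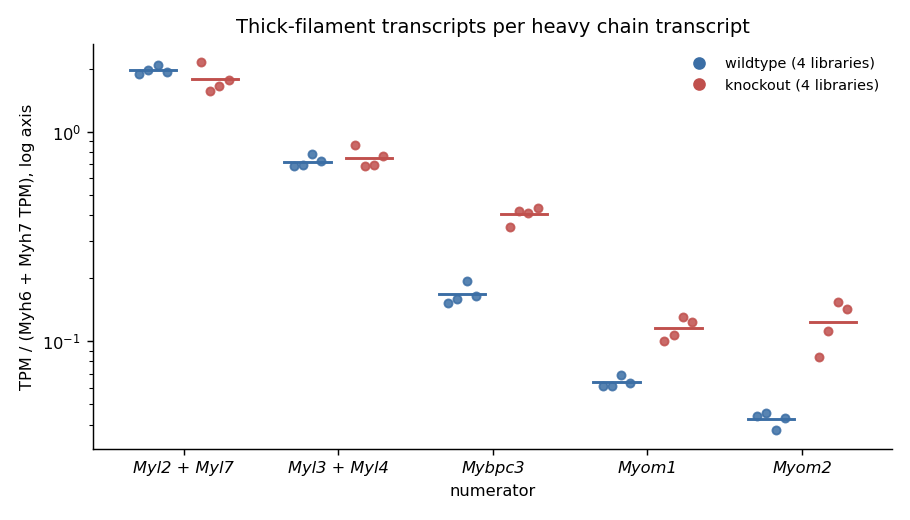
TPM of each light chain pair, Mybpc3, Myom1 and Myom2 divided by the summed TPM of Myh6 and Myh7 in the same library, on a log axis, with a line at the mean of each group of 4. The light chain pairs overlap between groups, whereas Mybpc3 and both myomesins are higher in every knockout library, where a gene of unchanged level would be 1.6-fold higher.

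By normalised counts per kilobase the order of the wildtype means was Myl2, Myh6, Myl3, Mybpc3, Myl7, Myom1, Myl4, Myom2, Myh7 and Myh7b. Of the neighbours in that order, Myom1 and Myl4 overlapped between libraries, and so did Myh7 (239.5 to 659.3) and Myh7b (383.9 to 448.9). In the knockout the first 4 kept their places, and then came Myh7, Myom2, Myom1, Myl4, Myl7 and Myh7b. Myh7 moved from the ninth place to the fifth at 8403 ± 3371 (SD, n = 4) normalised counts per kilobase, a level that overlapped those of Myom2 and Myom1. Myl7 moved from the fifth to the ninth at 798.7 ± 545 (SD, n = 4), which overlapped Myl4 above it and Myh7b below it. Myh6 and Myl3 also overlapped in the knockout.

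The scaling of the libraries moved all members together. Total-count scaling set the median log2 fold change of records with at least 10 normalised counts at -0.28, and rRNA-free total counts at 0.44, against 0.02 with the size factors used. Relative to that median Myh7 was at 4.08, 4.07 and 4.07 with the size factors, total counts and rRNA-free total counts, and Myl3 at -0.60, -0.61 and -0.60. Relative to the median gene Myom1 was at 0.173, 0.165 and 0.166, so its sign changed with the scaling only where the median gene was not taken off. The number of members called was 8 under each of these scalings, and it then held Myom1 and not Myl3 with rRNA-free total counts.

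**Figure D5:**
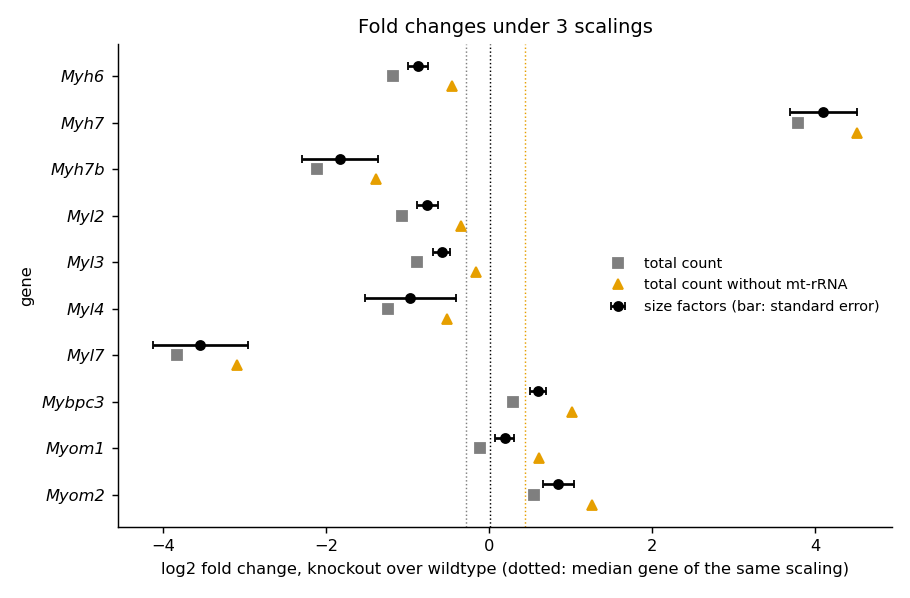
Log2 fold changes of the 10 genes, knockout over wildtype, with the size factors used (black, bars give the standard error), total counts (grey) and rRNA-free total counts (orange), and dotted lines at the median gene of each scaling. The points of a gene shift with the dotted lines, and Myom1 is the only gene whose points lie on both sides of 0.

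Members of the sarcomere outside the 10 genes were counted next, and the counts of this and the following lists stand beside 33.7% called among all records, 18.2% higher and 15.5% lower. Those shares hold for the size factors used. With rRNA-free total counts 7950 of 20459 records were higher and 1111 lower. With total counts 1924 of 19961 records were higher and 5912 lower. Of 16 other sarcomeric myosin and M-band genes, 11 had an adjusted p, of which 5 were lower, 1 was higher and 5 were not called. With rRNA-free total counts 2 were lower and 1 higher, and with total counts 6 and 1. Mybpc2, the fast skeletal form of myosin-binding protein C, fell by 2.57 on the log2 scale from 382.3 ± 52.7 to 64.4 ± 22.9 normalised counts (SD, n = 4), whereas its cardiac relative Mybpc3 rose (DESeq2, adjusted p = 1.85e-24). Myom3, the third myomesin, rose by 1.18 from 48.7 ± 6.3 to 110.0 ± 27.5 normalised counts (SD, n = 4) and so moved with Myom2 (DESeq2, adjusted p = 3.32e-05). Obsl1, an M-band partner of the myomesins, fell by 0.95 (DESeq2, adjusted p = 1.52e-16). Of the skeletal heavy chains, Myh1, Myh2, Myh3, Myh4 and Myh13 had fewer than 8 normalised counts in every library.

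Of 17 genes that act on myosin, 7 were lower, 3 were higher and 7 were not called. Mylk4, a kinase of the light chain kinase family, fell by 1.24 on the log2 scale (DESeq2, adjusted p = 4.42e-07). Trim54, a muscle RING finger protein, rose by 1.10 and Hsp90aa1, a chaperone of myosin folding, by 0.87 (DESeq2, adjusted p = 4.87e-11 and 6e-05). With rRNA-free total counts the same list had 6 higher and 1 lower, and with total counts 2 higher and 12 lower. The balance of the list thus moved with the scaling, as that of all records did.

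Of 16 genes of thyroid hormone handling and Myh6 or Myh7 control, 15 had an adjusted p, of which 6 were lower, 2 were higher and 7 were not called. Thrb, a thyroid hormone receptor, fell by 1.14 on the log2 scale from 557.1 ± 25.8 to 253.2 ± 20.8 normalised counts (SD, n = 4), and Slc16a10, a thyroid hormone transporter, fell by 1.30 (DESeq2, adjusted p = 2.79e-22 and 1.89e-14). Dio3, the deiodinase that inactivates the hormone, was called higher on very few reads, with at most 1.365 normalised counts in the wildtype and 0 to 11.77 in the knockout (DESeq2, adjusted p = 0.0407, lost in most fits that left out a library). Total counts gave 0 higher and 11 lower in this list, and rRNA-free total counts 3 and 3.

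Of 9 non-muscle and smooth muscle myosin genes, 1 was lower, 2 were higher and 6 were not called, a share called close to the 33.7% of all records. Myh11, the smooth muscle heavy chain, fell by 1.161 on the log2 scale, and Myl6, the essential light chain of non-muscle and smooth muscle myosin, rose by 0.68 (DESeq2, adjusted p = 5.09e-06 and 1.03e-06). Myl12a, a non-muscle regulatory light chain, rose by 0.33 (DESeq2, adjusted p = 0.0392), a call that edgeR did not make (adjusted p = 0.05905). It was also lost with total counts, where the value was 0.03 (DESeq2, adjusted p = 0.879), and in 6 of 8 fits that left out a library. With rRNA-free total counts 6 were higher and 1 lower, and with total counts 1 and 2.

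Markers of other cells were read beside the members. Of 8 cardiomyocyte genes 6 were lower and 2 not called, led by Atp2a2, Pln and Ryr2 of calcium cycling, which fell by 1.63, 1.46 and 1.4 on the log2 scale (DESeq2, adjusted p = 8.96e-45, 2.55e-14 and 1.02e-21), and the summed level was 1958122 to 2092741 normalised counts in the wildtype and 1157152 to 1427136 in the knockout. Mybpc3, Myom2 and Myh7 thus rose while most of that list fell. With rRNA-free total counts 5 of the 8 were lower and 1 higher, and with total counts 7 were lower. Of 5 smooth muscle genes 3 were lower and 2 not called (Myocd, Myh11 and Acta2), of 5 fibroblast genes 2 were higher and 3 not called (Col1a1 and Col1a2), and of 4 macrophage genes 2 were higher and 2 not called (Cd68 and Csf1r). The groups of Col1a1 overlapped, with knockout replicate 3 at 769.2 normalised counts and the other knockout libraries at 1660 to 3228, and Col1a2 in that library, at 2350, lay close to the wildtype. The groups of Csf1r also overlapped, and total-count scaling ended its call, at 0.45 (DESeq2, adjusted p = 0.163). Of 4 endothelial genes DESeq2 and edgeR called 0, with 2 at an unadjusted DESeq2 p under 0.05, and of 4 erythroid genes they called 0, with 0 at that unadjusted p. Among skeletal muscle genes Acta1, which stressed hearts also express, and Tnnt3 (from a mean of 2.85 to 18.6 normalised counts) were higher and Tnni2 and Ckm lower, of which the Tnni2 call, on 2.59 to 19.12 normalised counts, was lost in 6 of 8 fits that left out a library and with rRNA-free total counts (DESeq2, adjusted p = 0.127), while Mylpf, Myh1, Myh4 and Actn3 had fewer than 8 normalised counts in every library. The other scalings moved these counts too. With rRNA-free total counts 0 skeletal muscle genes were lower, 2 endothelial and 2 erythroid genes were higher, and 3 fibroblast and 3 macrophage genes were higher. With total counts 4 smooth muscle and 2 endothelial genes were lower and 1 macrophage gene was higher. The part of these cells in the members' values was not tested.

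The genes whose log2 normalised counts followed Myh7 most closely over the 8 libraries, among 10437 with a mean of at least 100, were Cipc and Gmfb with Pearson correlations of 0.997 and 0.995. For Myl7 they were Pde4a, E2f6 and P2ry1 with 0.996, 0.996 and 0.996. These are descriptions over 8 libraries in which the groups stand apart, and 417 genes had a correlation above 0.95 with Myh7 and 327 with Myl7.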

How the data were processed

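RNA of 8 hearts, 4 wildtype and 4 knockout by the titles, was sequenced by the authors as total RNA after rRNA depletion with random primers. They made the deposited expected counts, TPM and the other values (length and effective length in bases) with RSEM 1.2.31 and Bowtie2, reverse-stranded, on GENCODE M13 with added mitochondrial sequences (mm10). RSEM divides reads shared between genes such as Myh6 and Myh7. The authors' table of their own comparison and 8 columns of normalised counts whose names match no label were not used.

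Expected counts were rounded and fitted with DESeq2 1.42.0 in R 4.3.3, by genotype alone, with size factors by median of ratios, effective lengths as an offset (0 set to 1), no shrinkage and Benjamini-Hochberg adjustment over all records, at 0.05. Ratios used log2((TPM + 1)/(TPM + 1)) and exact permutation tests over 70 assignments, whose smallest two-sided p is 0.0286. Transcript lengths were tested singly, with no adjustment over the listed genes as first planned, and are read against the share of all genes. Symbols were matched by gene identifier to a reference name table for 50339 of 50599 records, positions (GRCm38) were read from GENCODE M21, and sequences from RefSeq. The genes, lists and tests were chosen with earlier results of these data known. The genes named were the 10 members, Lrpprc, the called genes with the 3 largest changes of each list, and the 3 genes most correlated with Myh7 and with Myl7, of which 1 is not reported here. Other names were chosen after their values were seen.

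Depth was 35218541 to 47743376 counts, and the lowest expected count of a member was 61 (Myl7). Floors cover counting error only. Replicate pairs differed beyond sampling noise (chi-square per degree of freedom 4.65 to 52.9), so each counted as 1. No batch is given in the labels. As alternatives, the fit was made by edgeR 4.0.16 (TMM), without the offset, after a filter (10 counts in at least 4 libraries), with size factors outside mitochondrial genes and their 11 nuclear copies, both total-count scalings, other pseudocounts (0.1 and 10 TPM), ratios of counts, a replicate block and leaving out each library. In simulated data with 15852 genes for this comparison, 50 genes were changed at each of the folds 1.5, 2, 4 and 16. DESeq2 recovered 60% of genes changed 1.5-fold and 100% of those changed 2-, 4- or 16-fold. It also called 44 unchanged genes, 19.6% of its calls, and edgeR called 9, 5.11% of its calls. These shares depend on how few genes were changed. They do not carry over to the data, where 33.7% of records were called.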

Additional observations from a re-analysis of the deposited data

Results flagged for a closer look

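Of 112 groups of 4 libraries examined, 5 held a library far from the other 3 by Dixon's ratio (the gap to the nearest library over the whole range, at its 95% critical value), and chance flags about 1 in 20. The log2 ratio of Myl4 to Myl3 in the knockout had a ratio of 0.85, set by replicate 3 at -6.17 against -3.82 to -3.40. The mean transcript length of Myh7b in the knockout had 0.963, set by replicate 1 at 4151.79 bases against 3242.85 to 3276.25, so the coding transcript made up 63.4% there and 46.8% to 47.4% in the others. The Lrpprc count in the knockout had 0.921, set by replicate 2 at 504.3. The Myom3 count in the knockout had 0.842, set by replicate 1 at 69.11 against 118.8 to 128.1. The Pln count in the knockout had 0.875, set by replicate 3 at 37044 normalised counts.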

How the results depend on the processing

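The calls (adjusted p under 0.05) and directions of Myh6, Myh7, Myh7b, Myl2, Myl7 and Mybpc3 were kept under every alternative run. With edgeR 8 members were called as well. With total counts without mitochondrial rRNA Myom1 was called at 0.61 (DESeq2, adjusted p = 1.81e-10), Myl3 was not, and the Myl3 and Myl4 sum was at -0.19. Myom1 was at -0.11 with total counts. Counts of called records were 9061 and 7836 with total counts without and with mitochondrial rRNA, of which 87.7% and 24.6% were higher, against 53.9% of 6728. With the effective length 1 member differed in length in place of 3.

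Leaving out each library gave 5549 to 7022 called records and 8 to 9 called members. The Myh7 to Myh6 log2 difference was 4.61 to 5.22, that of Myl7 to Myl2 -3.30 to -2.43 and that of Myl4 to Myl3 -0.95 to -0.03. The sums lay at -0.73 to -0.60 for the heavy, -0.94 to -0.76 for the regulatory and -0.70 to -0.56 for the essential chains, and 3 to 4 members differed in length.

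The small length differences of Myl3 and Myl4, 0.05 and 0.14 bases, changed sign. With the effective length they were -1.01 and -0.92. Leaving out each library gave -0.51 to 0.38 for Myl3 and -4.59 to 3.92 for Myl4. The cause was not tested.

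No pairing by replicate number was seen, since same-numbered libraries had correlations of their deviations of -0.05 to 0.09, and 1 of 4 correlated best with its own number. The labels do not say whether the numbers pair the libraries. With the replicate block 5525 records and 7 members were called, and Myom2 at 0.82 was not (DESeq2, adjusted p = 0.0758). Taken as sign flips of 4 differences, the block cannot change a mean difference between equal groups. The values were thus by construction 4.87 for Myh7 to Myh6, -3.01 for Myl7 to Myl2, and -0.68, -0.83 and -0.62 for the heavy, regulatory and essential sums. Its 16 sign flips cannot reach an exact p under 0.05.

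Among the 10 members depth limits Myl7 most, with 61 counts in knockout replicate 3, and Dio3, Tnnt3 and Tnni2 were called on fewer than 25 normalised counts in every library. Knockout replicate 3 set the spread of Myl4, and the division of reads shared by Myh6 and Myh7 could not be checked in these files. Myl12a, Dio3, Irx5, Tnni2 and Csf1r lost their calls under at least 1 alternative.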
